A study of Mus musculus with 64 samples.

Results

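The 6 RNA-seq libraries described here came from newly formed regulatory T (Treg) cells of the mouse thymus, 3 in which Foxp3 protein could be degraded and 3 in which it could not, out of 64 libraries in the series. They were chosen by experiment and cell state, by a rule that used no measured value, although earlier results of these data were known. All 6 came from adult heterozygous females (Foxp3AID/WT) in which 1 Foxp3 allele encodes a Foxp3 protein with an attached auxin-inducible degron (AID). That allele also carries a ZsGreen reporter and Cre recombinase. In the TIR1 group, labelled Foxp3-AID ROSA26-TIR1(F74G), the ROSA26 locus additionally holds the plant ubiquitin ligase adaptor TIR1(F74G) with mCherry behind a stop cassette that Cre removes, so that TIR1 is made only in cells that transcribe this allele or once did. The WT group, labelled Foxp3-AID ROSA26-WT, lacks this insertion. Both groups received 5-ph-IAA, the small molecule that lets TIR1 recognise the degron, for 7 days, so neither the drug nor the AID allele differs between them. Because of random X inactivation, Treg cells that use the unmodified Foxp3 allele remained in both groups of animals. CD4+TCRβ+ZsGreen+CD73- cells were sorted and then sorted again. CD73 separates newly formed thymic Treg cells, which lack it, from older cells that have returned to the thymus. The general gating scheme of the study also requires mCherry for TIR1 cells, whereas its description of the thymic sort does not name it. The replicates are described as independent biological replicates, and the source animals of each library are not given.

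The records contradict each other on the genotype of each library. The name of each library in the header of its count table matches the genotype written into the name of the table, and the library names in the GEO records give the same genotype. The GEO record to which the table is attached is titled with the other genotype. The header was followed here. If the attachment were right instead, every difference between TIR1 and WT below, in the thymus and in the active cells, would have the opposite sign.

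Foxp3 is the transcription factor that defines Treg cells, which restrain immune responses to the body's own tissues. In the thymus, developing CD4+ T cells that bind self-antigens strongly first gain CD25 (Il2ra), OX40 (Tnfrsf4) and GITR (Tnfrsf18). Interleukin-2 (IL-2) then acts through CD25 to induce Foxp3, so that these genes are expressed before and after Foxp3 appears. Mature Treg cells typically hold high levels of Ctla4, Il2ra, Tnfrsf18 and Izumo1r and low levels of Il7r. The contrast asks which transcripts differ between the groups at this early stage, when Foxp3 protein is removed in the TIR1 group. The ROSA26 insertion, with TIR1 and mCherry, differs between the groups as well, and no thymic library came from untreated animals. Its effect and that of Foxp3 removal cannot be told apart here.

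Libraries held 28199689 to 29891052 read pairs assigned to genes in WT and 30747299 to 34029692 in TIR1, so that every TIR1 library was deeper than every WT library. Between 13402 and 14043 genes had at least 10 counts. Libraries of one genotype were hardly more alike than libraries of different genotypes, with Pearson correlations of log2 CPM (counts scaled to a common library total) across genes of 0.908 to 0.931 within and 0.908 to 0.920 between genotypes. The first principal component held 23% of the variance and set WT replicate 2 apart from the other 5 libraries. T cell markers summed to 16347 to 17936 CPM in TIR1 and 16930.5 to 17045 CPM in WT, and the early thymocyte genes Rag1, Rag2 and Ptcra were at 0 in all 6 libraries. The 6 Treg markers (Foxp3, Il2ra, Ctla4, Ikzf2, Ikzf4 and Tnfrsf18) summed to 2581, 2555 and 2751 CPM in TIR1 and 2977, 3073 and 3069 CPM in WT, so the groups did not overlap. Taken singly, Foxp3, Il2ra, Ikzf2 and Ikzf4 overlapped. Ctla4 and Tnfrsf18 did not, with Tnfrsf18 at means of 970 CPM in TIR1 and 1214 CPM in WT. In bulk RNA, fewer cells of a type and less RNA per cell cannot be told apart. Nt5e, which encodes the gate protein CD73, ranged from 16.7 to 26.9 CPM in TIR1 and from 21.9 to 26.4 CPM in WT.

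Foxp3 mRNA did not separate the genotypes. Foxp3 (chromosome X, 7439883 to 7461484, plus strand, GRCm39) was at 168, 144 and 157 CPM in TIR1 replicates 1 to 3 and at 158, 144 and 181 CPM in WT replicates 1 to 3. The groups overlapped, with 156 ± 12.1 against 161 ± 18.8 CPM (SD, n = 3 each), and the edgeR log2 fold change, here always TIR1 minus WT, was -0.048 (SE 0.11, adjusted p = 0.988). Its sign turned without TIR1 replicate 2 (0.008) or WT replicate 3 (0.041). The degron acts on protein, which was not measured here. Reads of Foxp3 and of genes that overlap 31.5% of its exonic bases could not be told apart, as counting ignored strand. Shares of exonic bases in overlap were 32% for Znrf1, 30.5% for Il2rg and 27.2% for Tnfrsf18. At the other edited locus, Gt(ROSA)26Sor (chromosome 6, 113043843 to 113054294, minus strand), a non-coding RNA, was at 37.2, 33.1 and 32.2 CPM in TIR1 and 51.8, 51.7 and 58.4 CPM in WT. All 3 TIR1 libraries were below all 3 WT libraries, an edgeR log2 difference of -0.66 (SE 0.15, adjusted p = 0.461). This value was not used to assign genotypes.

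Across the 14245 genes with a mean count of at least 10, edgeR called 0 at an adjusted p under 0.05 (0%). At an unadjusted p under 0.05 it found 598 genes higher (4.2%) and 452 lower (3.17%) in TIR1. DESeq2, the tool the study used, called 88 higher (0.618%) and 68 lower (0.477%). Their edgeR log2 fold changes had medians of 0.69 and -0.39. The most extreme were 9.66 for Chst3 and -9.09 for Sccpdh, genes with mean counts of only 53.8 and 31.7. The TIR1 libraries lay all above the WT libraries for 964 genes (6.77%) and all below for 888 genes (6.23%). The smallest edgeR adjusted p was 0.0587, for Tspan13, and 4 genes were at or below 0.1. In what follows, a gene is said to have risen or fallen only where DESeq2 called it, and none of these genes passed edgeR. With 3 against 3 libraries an exact permutation test cannot give a two-sided p below 0.1.

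**Figure D1:**
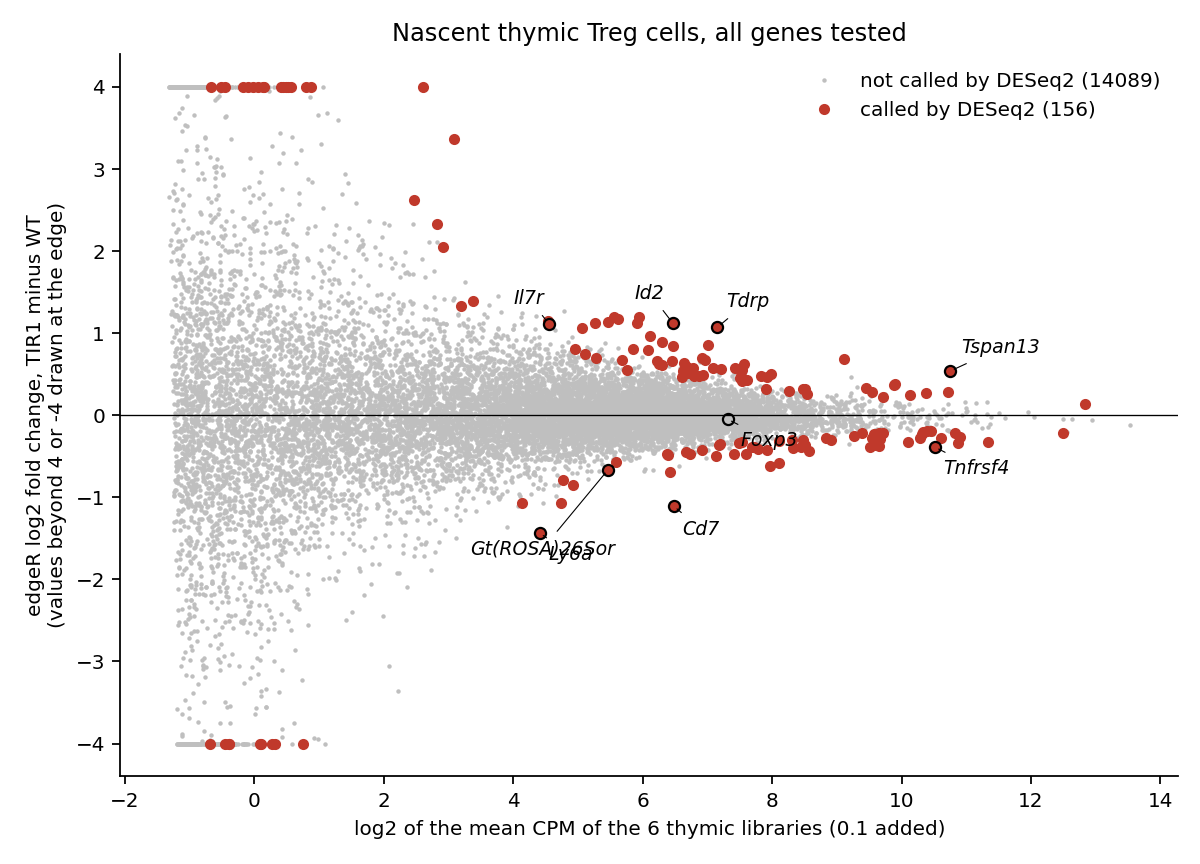
Each point is 1 of the 14245 genes, with its level (log2 of the mean CPM over the 6 libraries) on the x axis and the edgeR log2 fold change of TIR1 minus WT on the y axis. The 156 genes called by DESeq2 are red, the median of all genes lies at -0.002, and Id2 and Cd7 are labelled at 1.12 and -1.11. Called genes reach 9.66 (Chst3) and -9.09 (Sccpdh), and values this far out are drawn at the edge of the y axis.

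The 24 leading genes are those with the smallest edgeR p, 12 in each direction, among genes whose groups did not overlap and whose mean count reached 100. They were picked on this contrast, so their values describe it and do not test it. DESeq2 called all 24. Their absolute log2 fold changes ran from 0.215 to 1.44 and their edgeR adjusted p from 0.0587 to 0.452. The median log2 fold change was 0.84 for the 12 higher and -0.39 for the 12 lower genes.

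**Figure D2:**
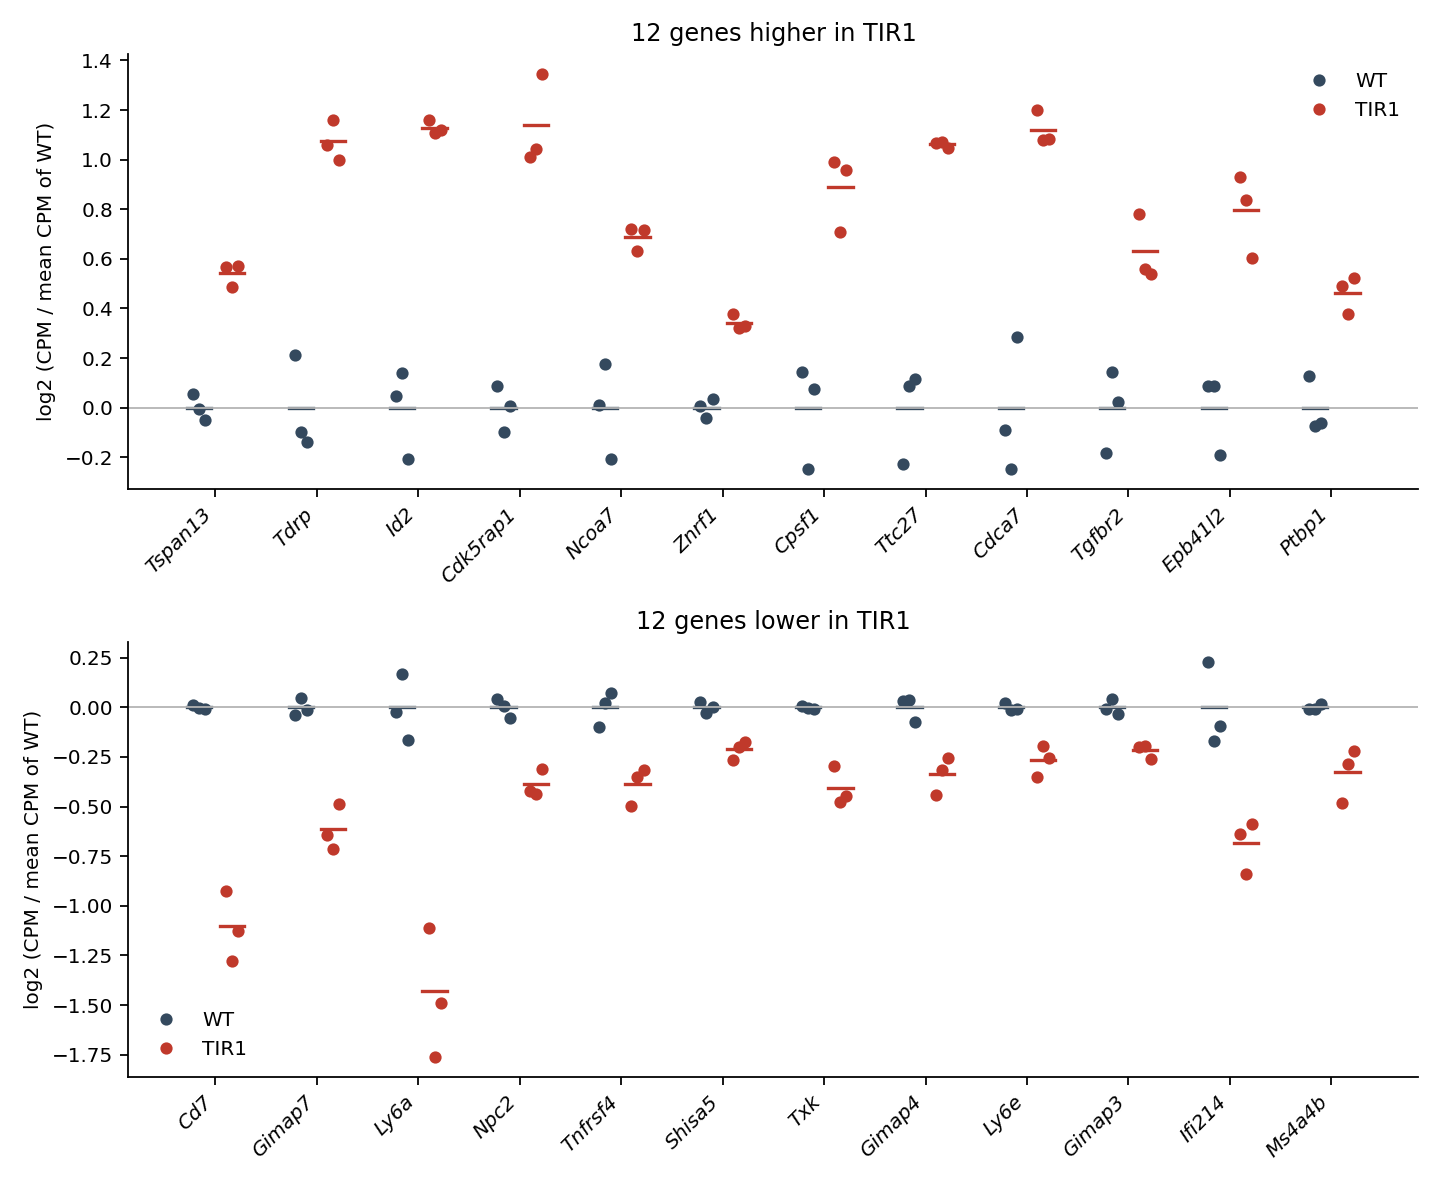
Each point is a library, plotted as log2 of its CPM over the mean WT CPM of that gene, for the 12 leading genes higher in TIR1 (top) and the 12 lower in TIR1 (bottom), with short lines at the group means. The red TIR1 points lie wholly above the blue WT points in the top panel and wholly below in the bottom panel, from Ly6a at a fitted log2 fold change of -1.44 to Cdk5rap1 at 1.14.

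Among regulators, the leading gene was Id2 (chromosome 12, 25143798 to 25147139, minus strand), which encodes a small protein that binds E proteins and keeps them off DNA. Id2 was at 123, 119 and 120.2 CPM in TIR1 and 57.2, 60.9 and 47.9 CPM in WT. The 3 TIR1 libraries were nearly equal and each was far above the highest WT library, a ratio of means of 2.19. Id2 rose by DESeq2, with an edgeR log2 difference of 1.12 (SE 0.12, adjusted p = 0.0606, and 7.94e-12 to 0.476 over the alternative analyses). Cdca7, a target of MYC and E2F factors linked to DNA methylation, was at 55.5, 51 and 51.2 CPM in TIR1 and 22.7, 20.3 and 29.4 CPM in WT. Tgfbr2, a subunit of the receptor for TGF-β, was at 254, 218 and 215 CPM in TIR1 and 130.3, 163 and 150.0 CPM in WT. Neither gene had overlapping groups, and the edgeR log2 fold changes were 1.12 (SE 0.18) and 0.63 (SE 0.11).

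Tspan13 (chromosome 12, 36064556 to 36092499, minus strand), a tetraspanin of the cell membrane, was the most abundant of the 12 higher genes, at 2076, 1964 and 2086 CPM in TIR1 and 1458, 1395 and 1354 CPM in WT. Its groups were well apart with little spread, an edgeR log2 difference of 0.54 (SE 0.049, adjusted p = 0.0587, and 1.83e-23 to 0.63 over the alternatives). Tdrp was at 191, 205 and 183 CPM in TIR1 and 106, 85.7 and 83.2 CPM in WT, and Cdk5rap1, an enzyme that modifies mitochondrial tRNA, was at 55.6, 56.8 and 70.2 CPM in TIR1 and 29.4, 25.8 and 27.7 CPM in WT. TIR1 replicate 3 had the highest Cdk5rap1 value, yet both genes stayed clear of WT in every TIR1 library. Ncoa7, of the family of nuclear receptor coactivators, was at 697, 656 and 694 CPM in TIR1 and 426, 477 and 366 CPM in WT. Cpsf1, a subunit of the complex that cleaves the ends of messenger RNA, was at 109.6, 90.3 and 107 CPM in TIR1 and 61, 46.5 and 58.2 CPM in WT. Their log2 fold changes were 0.69 (SE 0.10) and 0.89 (SE 0.14), and in both genes WT replicates differed more from each other than those of Tspan13 did. The remaining 4 were the ubiquitin ligase gene Znrf1 (0.34), Ttc27 (1.06), the cytoskeletal gene Epb41l2 (0.79) and the splicing regulator gene Ptbp1 (0.46), given as log2 fold changes.

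Of the 12 lower genes, the one with the smallest edgeR p was Cd7 (chromosome 11, 120927573 to 120930244, minus strand), an immunoglobulin-family receptor of T and natural killer cells. It was at 64, 50 and 55.6 CPM in TIR1 and 123, 121 and 121 CPM in WT. The WT libraries were nearly equal, and the TIR1 mean was 46.6% of the WT mean. Cd7 fell by DESeq2, with an edgeR log2 difference of -1.11 (SE 0.12, adjusted p = 0.0606, and 6.83e-12 to 0.467 over the alternatives). Ly6a (chromosome 15, 74866726 to 74869880, minus strand), which encodes the GPI-anchored protein Sca-1, was at 14.2, 9.08 and 11 CPM in TIR1 and 30.3, 34.6 and 27.5 CPM in WT. The size of this difference was the greatest of the 24 genes, with a log2 fold change of -1.44 (SE 0.25), although its mean CPM over the 6 libraries was the lowest of the 24. Its neighbour Ly6e was at 1647, 1835 and 1759.5 CPM in TIR1 and 2130.1, 2081 and 2087 CPM in WT, again without overlap. Ms4a4b, a membrane protein of T cells, was at 2058, 2362 and 2468 CPM in TIR1 and 2858, 2861 and 2913 CPM in WT, with WT libraries close together and TIR1 replicate 1 lowest.

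Of the 12 lower genes, 3 belong to the Gimap family of GTPases, which act in lymphocyte survival and lie together on chromosome 6. Gimap7 was at 193, 184 and 215 CPM in TIR1 and 293, 311 and 299 CPM in WT. Gimap4 was at 1536, 1678 and 1750.4 CPM in TIR1 and 2133, 2145 and 1985 CPM in WT. Gimap3 was at 1692, 1698 and 1623 CPM in TIR1 and 1932, 1998 and 1894 CPM in WT. None of the 3 had overlapping groups, and their log2 fold changes were -0.61, -0.34 and -0.22. Gimap5 also fell, from 167, 163 and 163 CPM in WT to 134, 124 and 129.9 CPM in TIR1, and Gimap6 had a log2 fold change of -0.12 (edgeR adjusted p = 0.72) and was not called. Members of this family and of the Ly6, Ms4a and Ifi families resemble each other in sequence, so the share of reads that each received is uncertain. The others were Npc2, which moves cholesterol out of lysosomes (-0.39), Shisa5 (-0.21), the Tec-family kinase gene Txk (-0.41) and the interferon-inducible gene Ifi214 (-0.69), as log2 fold changes.

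Per kilobase of exon, the lower genes were the more abundant group. The median WT level was 229 FPKM (counts per kilobase of exon, scaled to library size) for the 12 lower and 18.8 FPKM for the 12 higher genes. Shisa5 was at 1873 ± 34.1 FPKM and Tnfrsf4 at 1212 ± 72.2 FPKM in WT (SD, n = 3), while Foxp3 was at 35.2 ± 4.11 FPKM and Id2 at 22.7 ± 2.74 FPKM. In TIR1 Id2 stood at 49.6 ± 0.915 FPKM, above Foxp3 at 34.1 ± 2.64 FPKM.

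Promoter sequences were read for the 24 leading genes from the RefSeq table for GRCm38.p6, a build other than that of the counts. Each covers 250 bases before and 50 after the start of transcription, and 19 of the 24 genes had an entry. The forkhead motif, the kind of site that Foxp3 and other forkhead factors bind, was searched as TGTTTAC or TGTTTGC on both strands. It occurred in 2254 of all 27025 promoters (8.34%) and in 1 of the 19, that of Gimap3. The promoters of 3 genes are shown 5′ to 3′ on the gene's strand, with motif matches in capitals. Id2 and Tnfrsf4 are shown as a higher and a lower gene. Both also differed in the opposite direction where Foxp3 was switched on, as described below. Gimap3 is shown for its match.
Id2 (chr12:25096043-25096342, minus strand): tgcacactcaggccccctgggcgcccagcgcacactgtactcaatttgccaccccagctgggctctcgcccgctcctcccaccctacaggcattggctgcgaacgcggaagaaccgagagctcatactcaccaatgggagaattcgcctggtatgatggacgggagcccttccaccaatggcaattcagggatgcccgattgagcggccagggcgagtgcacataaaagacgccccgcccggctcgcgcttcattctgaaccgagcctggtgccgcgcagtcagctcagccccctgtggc
Tnfrsf4 (chr4:156013445-156013744, plus strand): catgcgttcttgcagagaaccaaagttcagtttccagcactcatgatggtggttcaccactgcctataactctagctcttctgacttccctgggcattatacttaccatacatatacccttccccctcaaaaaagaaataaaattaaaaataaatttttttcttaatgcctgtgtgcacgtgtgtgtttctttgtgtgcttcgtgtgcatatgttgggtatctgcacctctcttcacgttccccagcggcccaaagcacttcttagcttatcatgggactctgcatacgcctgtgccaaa
Gimap3 (chr6:48770802-48771101, minus strand): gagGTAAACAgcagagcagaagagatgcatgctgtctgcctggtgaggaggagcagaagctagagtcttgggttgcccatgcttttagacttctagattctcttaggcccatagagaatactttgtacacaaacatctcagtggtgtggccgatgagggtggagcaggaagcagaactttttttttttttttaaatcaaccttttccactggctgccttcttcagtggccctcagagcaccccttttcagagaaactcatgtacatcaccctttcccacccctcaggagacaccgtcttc
The match in Gimap3 begins at position 4 of the printed sequence and reads the motif on the opposite strand. A match describes these letters only, and its absence in the other windows says nothing about binding of Foxp3.

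Of 29 genes of the Treg suppressive and costimulatory equipment, 24 were tested, 5 fell and 0 rose by DESeq2, and 0 passed edgeR. In 7 the TIR1 libraries lay all below WT and in 1 all above, and the median log2 fold change was -0.15, against -0.002 over all genes. DESeq2 called 0.618% of all genes higher and 0.477% lower. The TIR1 libraries lay all above WT in 6.77% of all genes and all below in 6.23%. The 5 that fell were Tnfrsf4, Tnfrsf18, Cd27, Izumo1r and Gpr83. Tnfrsf4 (chromosome 4, 156098300 to 156101069, plus strand), which encodes the costimulatory receptor OX40, was at 1172, 1297 and 1331 CPM in TIR1 and 1545, 1680.0 and 1737 CPM in WT. Tnfrsf18, the gene of the receptor GITR, was at 906, 994 and 1009 CPM in TIR1 and 1138, 1303 and 1200.3 CPM in WT. Both were without overlap, with log2 fold changes of -0.39 (SE 0.068, edgeR adjusted p = 0.406) and -0.33 (SE 0.071, edgeR adjusted p = 0.461). Cd27, from the same receptor family, was at 698, 704 and 706 CPM in TIR1 and 843, 784 and 831 CPM in WT. Izumo1r, which encodes folate receptor 4 of Treg cells, was at 263, 376 and 335 CPM in TIR1 and 438, 458 and 421 CPM in WT. The orphan receptor gene Gpr83 was at 161, 255 and 245 CPM in TIR1 and 276, 342 and 369.9 CPM in WT. In Izumo1r and Gpr83, TIR1 replicate 1 was well below the other 2 TIR1 libraries, and the groups did not overlap.

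Ctla4, the inhibitory receptor through which Treg cells remove costimulatory ligands, was at 299.6, 324 and 352 CPM in TIR1 and 371, 403 and 366 CPM in WT. Its groups did not overlap, yet it was called by neither tool (log2 fold change -0.23, SE 0.083, edgeR adjusted p = 0.633). Tnfrsf9, the gene of 4-1BB, had a log2 fold change of -0.15 (edgeR adjusted p = 0.648), also without overlap or call. Lrrc32, which encodes the TGF-β docking receptor GARP, had -0.35 (SE 0.13), with overlapping groups. The exception on the upper side was Pdcd1, the gene of PD-1, at 228, 184 and 171 CPM in TIR1 and 121, 141 and 156 CPM in WT (log2 fold change 0.48, edgeR adjusted p = 0.532, not called). Il10, Gzmb and Klrg1, genes of effector Treg cells, were at 0 in all 6 libraries.

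**Figure D3:**
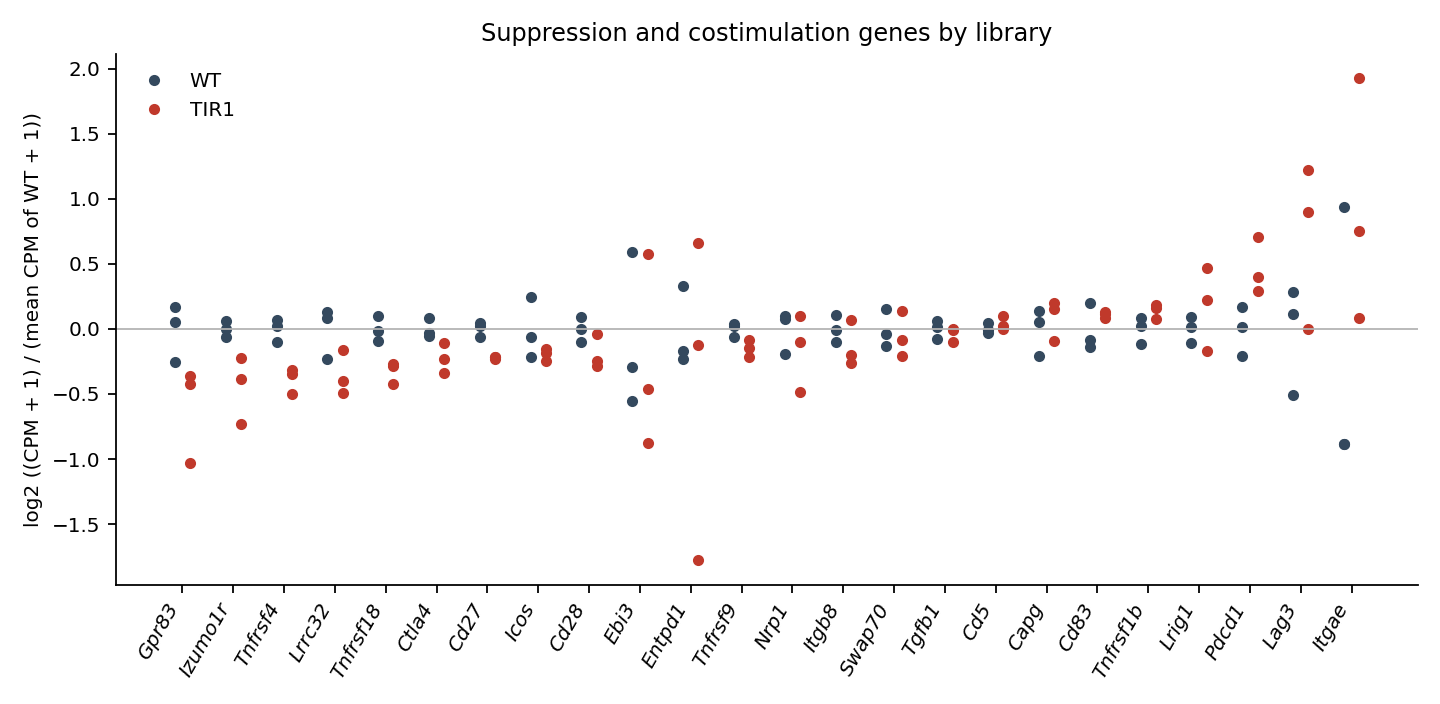
Each point is a library, plotted as log2 of its CPM plus 1 over the mean WT CPM plus 1, for the suppression and costimulation genes, with WT in blue and TIR1 in red. The TIR1 points of Tnfrsf4, Tnfrsf18, Cd27, Izumo1r, Gpr83, Ctla4 and Tnfrsf9 lie below all WT points, and those of Pdcd1 lie above.

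In the IL-2 and IL-7 receptor axis, Il7r alone was called. All 15 members were tested, 1 rose and 0 fell by DESeq2, and the median log2 fold change was -0.10. Over all genes, 0.618% rose and 0.477% fell. Il7r, which encodes the IL-7 receptor α chain CD127, was at 30, 38.3 and 27.4 CPM in TIR1 and 13.2, 14 and 16.8 CPM in WT. The groups were well apart at low levels, with an edgeR log2 difference of 1.12 (SE 0.23, adjusted p = 0.452, and 0.00454 to 0.816 over the alternatives). Il2ra, the gene of CD25, was at 325, 369.8 and 369 CPM in TIR1 and 353, 429 and 485 CPM in WT, which overlapped (log2 fold change -0.26, SE 0.12). Socs1, a feedback inhibitor of cytokine signalling, had a log2 fold change of -0.24 and the common γ chain gene Il2rg -0.15, both without overlap and not called. Il2rb and Cish had -0.15 and -0.15, and the survival gene Bcl2 had 0.086.

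TCF, E protein and Id factors shape the choice between naive-like and effector states of T cells. Of 13 members, all tested, 2 rose and 1 fell by DESeq2, 5 had TIR1 all above WT and 1 all below, and the median log2 fold change was 0.19. Over all genes, 0.618% rose and 0.477% fell, and 6.77% lay all above and 6.23% all below WT. Beside Id2, Tcf7, the gene of TCF1, rose from 1460.3, 1650.5 and 1449 CPM in WT to 1866, 1917 and 1761 CPM in TIR1. Id3, likewise an inhibitor of E proteins, fell from 801, 849 and 784 CPM in WT to 698, 633 and 690.4 CPM in TIR1. Id2 and Id3 therefore differed in opposite directions, by 1.12 and -0.27 on the log2 scale, and TIR1 and WT libraries overlapped in neither. Sox4 (0.25), Tox (0.19) and Myb (0.22) were above WT in every TIR1 library and were not called, and Lef1 had 0.052. E protein genes themselves had log2 fold changes of 0.19 for Tcf3, 0.20 for Tcf4 and -0.12 for Tcf12.

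Of 23 partner factors of Foxp3 and other Treg transcription factors tested, 1 fell and 0 rose by DESeq2, and the median was -0.062. Among all genes, 0.477% fell and 0.618% rose. The gene that fell was Gata3, at 342, 280.1 and 335 CPM in TIR1 and 388, 432 and 409 CPM in WT (log2 fold change -0.36, SE 0.092). Runx1 (0.33), Batf (0.43) and Rela (0.14) lay above WT and Rel (-0.32) below in every TIR1 library, none of them called. Ikzf2, which encodes Helios, had -0.10 with overlapping groups, and Ikzf4, Foxo1, Satb1, Ets1 and Bach2 lay between -0.085 and 0.08.

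Antigen receptor response genes moved both ways. Of 23 members, 22 were tested, 2 rose and 2 fell by DESeq2, with a median of -0.086. Among all genes, 0.618% rose and 0.477% fell. Nr4a1, an orphan nuclear receptor induced by antigen receptor signals, fell from 718, 914 and 849 CPM in WT to 673, 629 and 606 CPM in TIR1. Dusp2, a phosphatase of MAP kinases, fell from 955, 912 and 820.5 CPM to 721, 730.4 and 749 CPM. Cd6, a surface regulator of T cell activation, rose from 760.0, 856 and 850.4 CPM to 1141, 1032 and 1011 CPM. Jun rose as well, from 35.1, 28.3 and 50.2 CPM in WT to 62, 116 and 69.9 CPM in TIR1, with TIR1 replicate 2 far above the other libraries. Dusp6 was above WT in every TIR1 library at a log2 fold change of 0.43, Nr4a3 and Ier2 were below at -0.40 and -0.24, and none of these was called. Egr1, Egr2 and Cd69 overlapped between groups, at -0.086, -0.087 and -0.16.

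Genes of thymocyte maturation and egress that were called all fell. Of 22 members, 18 were tested, 3 fell and 0 rose, and the median was -0.14. The shares over all genes were 0.477% that fell and 0.618% that rose. Klf2, a factor that drives S1pr1, was at 1310.0, 1251 and 1354 CPM in TIR1 and 1426, 1542 and 1500.4 CPM in WT. Itgb7, an integrin chain of gut homing, was at 811, 789.9 and 742 CPM in TIR1 and 881, 918 and 912 CPM in WT. Neither gene had overlapping groups, with log2 fold changes of -0.19 and -0.21. S1pr1 and Ccr7, which guide exit and migration, overlapped at -0.082 and -0.001, and Il6ra and Ifngr1 were below WT in every TIR1 library without being called.

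Cell cycle genes had the highest median of the 11 lists. All 24 were tested, 2 rose and 0 fell by DESeq2, 6 had TIR1 all above WT and 0 all below, and the median log2 fold change was 0.55, with 21 above 0. Over all genes, 0.618% rose and 0.477% fell, and 6.77% lay all above and 6.23% all below, with a median of -0.002. Members at a few CPM had large SE, such as Mki67 (2.085, SE 1.71), Aurkb (1.90, SE 1.52) and Ccnb2 (1.35, SE 1.21), all without overlap. The 2 that rose were Mcm3, at 101, 99.1 and 142 CPM in TIR1 and 64.7, 52.4 and 72.6 CPM in WT, and Mcm7, at 143, 147 and 169.8 CPM in TIR1 and 97.8, 77.4 and 112 CPM in WT. Both encode subunits of the replicative helicase, and their log2 fold changes were 0.85 (SE 0.18) and 0.68 (SE 0.14). Mcm6 (0.33) was also without overlap, whereas Mcm2 (0.37), Mcm4 (0.14), Mcm5 (0.60) and Pcna (0.10) overlapped. For each of Mcm2 to Mcm7, replicate 3 was the highest library of both genotypes. Genes of mitosis were near the limit of detection, with Mki67 at 4.37, 4.44 and 6.21 CPM in TIR1 and 0, 0 and 3.55 CPM in WT and Aurkb at 4.01, 4.14 and 6.99 CPM in TIR1 and 0, 0.1 and 3.96 CPM in WT. WT replicate 3 was close to the TIR1 libraries in both, while WT replicates 1 and 2 were at or near 0. Neither gene passed edgeR, and DESeq2 gave no adjusted p for Mki67, Aurkb or Ube2c.

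Of 24 helper T cell genes, 13 were tested, 1 rose and 0 fell, and the median log2 fold change was 0.23. For this list and those that follow, the shares over all genes were 0.618% that rose and 0.477% that fell. The cytokine genes Ifng, Il4, Il17a and Il21 did not pass the count minimum. Il6st, the shared signalling chain of the IL-6 receptor family, rose from 161, 173 and 165 CPM in WT to 246, 211 and 217 CPM in TIR1 (log2 fold change 0.43, SE 0.088). Il18r1 was at 26.3, 25.9 and 25.9 CPM in TIR1 and 18, 6.39 and 16.2 CPM in WT, with WT replicate 2 lowest, and was not called. Among adenosine and cyclic AMP genes, 15 of 15 were tested with a median of 0.094 and 1 rose, Pde3b, a phosphodiesterase gene, at 127, 119 and 119 CPM in TIR1 and 77.5, 98.8 and 78.7 CPM in WT (log2 fold change 0.51, SE 0.13). Of 18 cell survival genes, 17 were tested with a median of -0.087, and 3 fell, all of them Gimap genes, while Mcl1, Bcl2l1 and Bax overlapped at 0.013, -0.087 and -0.032. Of 20 interferon-stimulated genes, all tested with a median of -0.088, 1 rose and 1 fell. Ifit2 was at 114, 94 and 67.4 CPM in TIR1 and 50.8, 52.5 and 37.6 CPM in WT, and Ifi27l2a was at 634, 749.5 and 726 CPM in TIR1 and 933, 807 and 987 CPM in WT, neither with overlap.

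**Figure D4:**
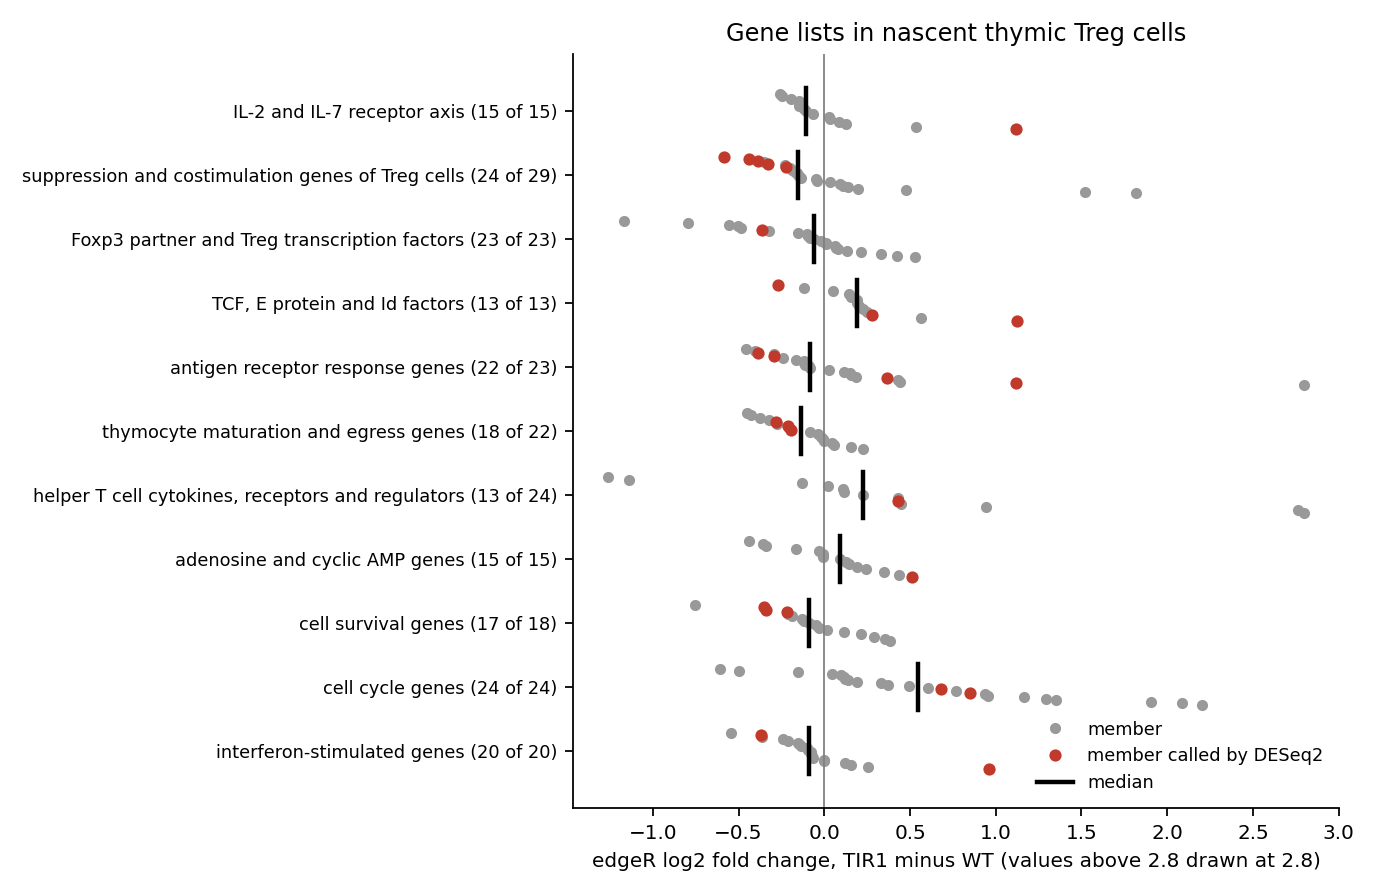
Each point is a tested member of 1 of 11 gene lists (tested of all members in brackets), placed by its edgeR log2 fold change of TIR1 minus WT, with a black line at the list's median and DESeq2 calls in red. Medians run from -0.15 for suppression and costimulation genes to 0.55 for cell cycle genes.

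Markers of other cells were compared alongside, since a sorted population can carry a few of them. B cell markers, 4 of 8 tested, summed to 159, 138 and 146 CPM in TIR1 and 178, 192 and 179 CPM in WT, without overlap. Most of this was Ighm, at 127 to 138 CPM in TIR1 and 157 to 175 CPM in WT, with a log2 fold change of -0.34 (SE 0.089). Cd79a and Cd79b, at 3.04 to 14.3 CPM, overlapped at 0.13 and -0.14, and Ebf1 was at 1.8, 0 and 0.0325 CPM in TIR1 and 0.0355, 0 and 0 CPM in WT, so that 2 of the 4 lay above 0 and 2 below, with a median of -0.006. Pax5 was at 0 in all 6 libraries and Ms4a1 was at 0 in all but WT replicate 1. Epcam, of thymic epithelium, was at 13.6 to 16.1 CPM in TIR1 and 18.1 to 29.1 CPM in WT, with Foxn1 and Aire at 0 in all 6. The epithelial list, 3 of 7 tested, overlapped in its sum, at 38.6 to 52.7 CPM in TIR1 and 44 to 65.7 CPM in WT. Double-positive thymocyte, recirculating Treg, CD8 and natural killer cell, γδ T cell, myeloid and erythroid markers each overlapped between groups in their sums. In the day 28 contrast described below, edgeR called Ighm (log2 fold change 1.23) and Epcam (1.90) higher in cells in which Foxp3 had been switched on. It called none of Cd79a, Cd79b, Ebf1, Psmb11 and Ly75 there. The part of B cell and epithelial transcripts in the lower genes was not tested.

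Active Treg cells of spleen and lymph nodes (activated cells, high in CD44), with the same alleles and the same 7 days of 5-ph-IAA, gave a contrast of mature cells. No library is shared with the thymus, but the names of both sets carry the numbers 1 to 6, so that a pair of libraries may come from the same animal. edgeR called 0 of 14554 genes there (0%), with 672 at an unadjusted p under 0.05, and DESeq2 called 21. Without active WT replicate 1, edgeR had 2032 genes at an unadjusted p under 0.05. That library differed from active WT replicates 2 and 3 by a chi-square per gene of 131 and 161, against 48.8 between replicates 2 and 3. Pairs of thymic replicates gave 35.8 to 50.5. The numbers of calls in the thymus and in active cells were thus made at unlike spread. Of the 12 thymic leading genes higher in TIR1, 8 had the same sign in active cells, as did 8 of the 12 lower genes, and edgeR called none of them there. Of the 13093 genes tested in both tissues, 6400 were above 0 in active cells. Active log2 differences were 1.15 (SE 0.45) for Cdk5rap1, whose groups overlapped, and 0.96 (SE 0.26) for Ncoa7, beside 1.14 and 0.69 in the thymus, and neither tool called them in active cells. For Id2 the active value was 0.22 (SE 0.14), for Cd7 0.014 (SE 0.33) and for Tnfrsf4 -0.18 (SE 0.16). Il2ra was at 304, 279.7 and 304 CPM in active TIR1 and 409, 469 and 504 CPM in active WT and fell there by DESeq2 (edgeR log2 difference -0.67, SE 0.13), beside -0.26 (SE 0.12) in the thymus, where it was not called. Foxp3 itself had -0.42 in active cells (SE 0.16, edgeR adjusted p = 1).

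Whether the 2 effects differ was tested as an interaction over the 12 adult libraries, which the fit treats as independent although library numbers are shared between the tissues. edgeR called 0 of 14769 genes (0%), with 984 at an unadjusted p under 0.05 and 2145 when active WT replicate 1 was left out. DESeq2 called 71, and for 50 of them the thymic log2 fold change minus the active one was above 0. This sign does not tell which effect was larger in size. Of the named genes, 6 were among the DESeq2 calls, namely Id2, Cpsf1, Il7r, Runx1, Cxcr5 and Ly6a. They were 5 of the 39 above WT and 1 of the 41 below WT in the thymus, beside 67 of the 13777 genes tested in both fits. Named genes were chosen partly on the thymic contrast, which is part of the interaction, so these counts describe them. Cxcr5 was near the detection limit in the thymus, at 2.48, 1.97 and 2.08 CPM in TIR1 and 0, 0.636 and 0.31 CPM in WT. Id2 was at 1066, 1059.7 and 1326 CPM in active TIR1 and 1046, 977 and 865 CPM in active WT libraries, all above the thymic libraries of either genotype. The difference of effects for Id2 was 0.90 on the log2 scale (SE 0.18, edgeR adjusted p = 0.422, and 6.43e-05 to 0.913 over the alternatives). Il7r was at 289, 348 and 259.9 CPM in active TIR1 and 242, 279 and 268 CPM in active WT, and its difference of effects was 0.97 (SE 0.21). Cpsf1 had 1.47 (SE 0.35) and Ly6a -1.05 (SE 0.28), so in these 4 genes the thymic effect was the greater in size or had the other sign. With the library number as a block, edgeR called 0 genes, with 815 at an unadjusted p under 0.05, and DESeq2 called 82, including 5 of these 6 but not Runx1. None of the 6 passed edgeR, so a difference between thymus and active cells rests on DESeq2 for them.

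A separate experiment turned Foxp3 on instead of removing it. Its mice were heterozygous females (Foxp3LSL/WT), in which a Thy1.1 reporter with a stop cassette flanked by loxP sites silences 1 Foxp3 allele, ahead of a GFP reporter, until CreERT2, driven from Cd4, is activated by 4-hydroxytamoxifen. Resting cells of spleen and lymph nodes were taken after 28 days from animals with CreERT2 (plusFoxp3) and without it (minusFoxp3), with 2 libraries per group. plusFoxp3 cells were sorted as GFP+ and minusFoxp3 cells as GFP-Thy1.1+, so the sort itself sets the difference in Foxp3. These are peripheral cells counted with less strict alignment filters, so only log2 fold changes are set beside those of the thymus. Foxp3 was at 526 and 615 CPM in plusFoxp3 and 55.5 and 59.5 CPM in minusFoxp3, an edgeR log2 difference of 3.33 (SE 0.19, adjusted p = 1.41e-07). Of the 14047 genes also tested in the thymus, edgeR called 81 higher (0.577%) and 68 lower (0.484%) in plusFoxp3.

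Of the 39 named genes whose thymic TIR1 libraries all lay above WT, 7 were called lower in plusFoxp3 and 0 higher, and 26 had the opposite sign at day 28. Of 41 named genes all below WT, 8 were called higher in plusFoxp3 and 0 lower, and 33 had the opposite sign. Among the 14047 genes, 7109 had a negative and 6937 a positive day 28 log2 fold change. These genes were chosen on the thymic contrast or from lists of known Treg genes, so the counts describe them. Id2 was at 129.7 and 75.4 CPM in plusFoxp3 and 275 and 266 CPM in minusFoxp3 (log2 fold change -1.39, SE 0.23). Tcf7 was at 707 and 763 CPM in plusFoxp3 and 1858 and 1783 CPM in minusFoxp3 (-1.29, SE 0.17), and Pde3b at 9.78 and 11.8 CPM in plusFoxp3 and 61.3 and 57.7 CPM in minusFoxp3 (-2.45, SE 0.35). These 3 were lower in both plusFoxp3 libraries than in both minusFoxp3 libraries and higher in all 3 thymic TIR1 libraries than in all 3 WT libraries. The other 4 were Tdrp (-1.72), Sox4 (-1.86), Dusp6 (-1.20) and Il18r1 (-2.05).

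The 8 genes of the other direction were Cd7, Ly6a, Ly6e, Tnfrsf4, Tnfrsf9, Izumo1r, Gpr83 and Ifngr1. Ly6a was at 539 and 334 CPM in plusFoxp3 and 134 and 80.6 CPM in minusFoxp3 (log2 fold change 2.04, SE 0.25). Cd7 was at 38.9 and 52.2 CPM in plusFoxp3 and 16.9 and 14.9 CPM in minusFoxp3 (1.54, SE 0.25), and Gpr83 at 228 and 282 CPM in plusFoxp3 and 71.6 and 49.4 CPM in minusFoxp3 (2.10, SE 0.32). All 3 were higher in both plusFoxp3 libraries. For Tnfrsf4 the log2 fold change was 1.09 (edgeR adjusted p = 0.0253), opposite in sign to -0.39 in the thymus. All 15 of these named genes kept the opposite sign when any of the 4 libraries was left out, and 5 to 9 of them were then still called. In the suppression list, 9 of the 24 genes tested in the thymus were called higher in plusFoxp3, beside 0.577% of all genes. Among the 9, Tnfrsf4, Tnfrsf9, Izumo1r and Gpr83 lay below WT in the thymus without overlap, and Lrrc32, Ebi3 and Nrp1 overlapped there. Itgae (1.82, SE 1.85) and Cd83 (0.11, SE 0.10) had thymic log2 fold changes above 0.

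**Figure D5:**
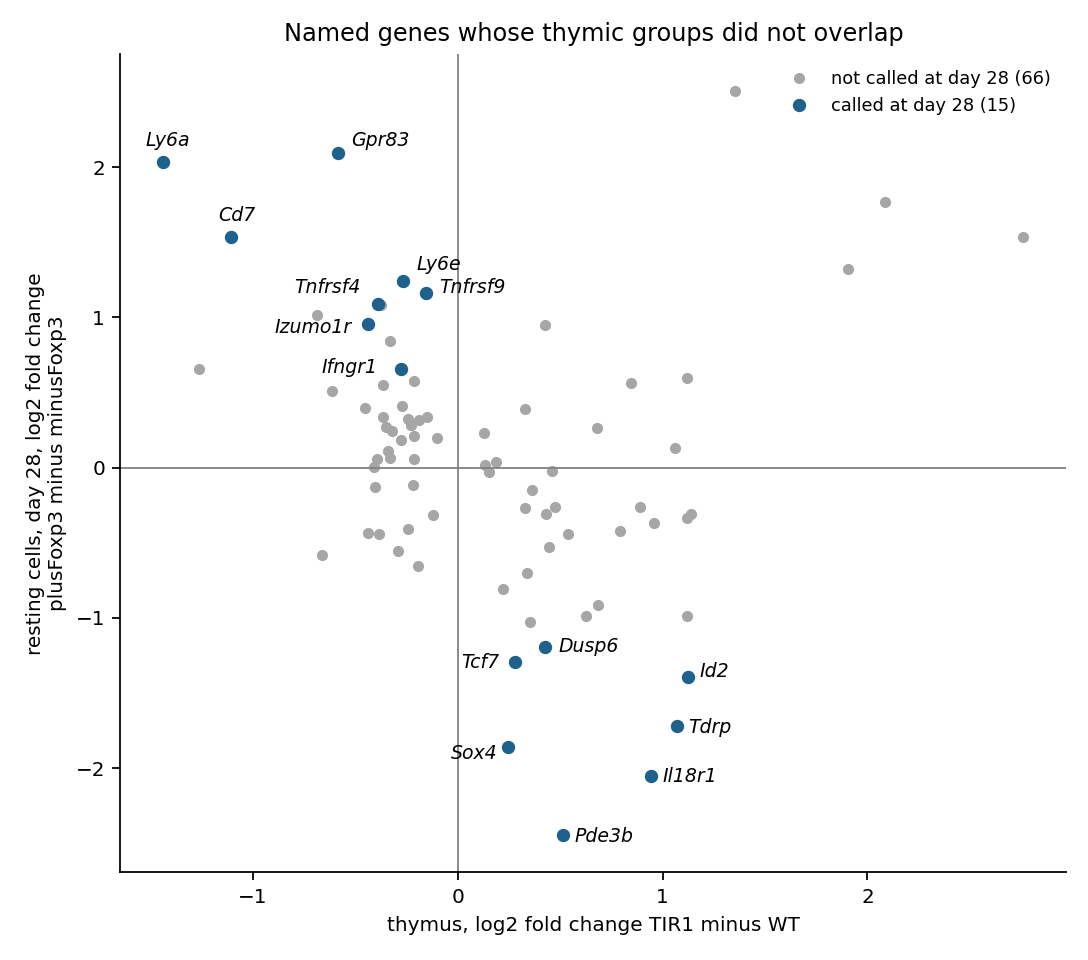
Each point is a named gene whose thymic groups did not overlap (39 above and 42 below WT, Gt(ROSA)26Sor included), with the thymic log2 fold change of TIR1 minus WT on the x axis and the day 28 log2 fold change of plusFoxp3 minus minusFoxp3 on the y axis. The 15 genes called at day 28 (blue, labelled) lie in the upper left and lower right parts, from Ly6a at -1.44 and 2.04 to Pde3b at 0.51 and -2.45.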

How the data were processed

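RNA was measured by bulk sequencing of polyadenylated transcripts (SMART-Seq). The authors deposited unnormalised counts of read pairs for each gene, made with featureCounts 2.0.3 per the file headers over GENCODE gene names on GRCm39, without strand. The aligner is given as STAR in the study's methods and as Bowtie2 in the submitters' processing notes. The degron libraries, but not those of the reversible allele, were counted with a mapping quality filter and on primary alignments, so comparisons between the experiments use only contrasts fitted within each. All count columns of the groups used were mapped to samples by library name, as explained with the results.

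Counts were normalised with TMM factors (0.989 to 1.01 in the thymus) and tested in edgeR 4.0.16 (R 4.3.3; robust quasi-likelihood test), over genes with a mean count of at least 10 in the libraries of each fit. Calls required an adjusted p under 0.05 (Benjamini-Hochberg). The thymus and active contrasts used their own 6 libraries, the interaction all 12, and day 28 the 22 libraries of resting reversible-allele and GFP Treg cells. SE was the absolute log2 fold change over the square root of F. CPM and FPKM carry no TMM factor. FPKM used exonic length. DESeq2 1.42.0 (adjusted p under 0.05) was an alternative, beside RLE size factors, no count filter, filterByExpr, limma voom 3.58.1, no robust estimation, a 12-library fit, leaving out each replicate in turn, a replicate block, libraries thinned to the smallest total, and, for the interaction, a block on library number with edgeR or DESeq2. Thinning and this block were chosen after seeing the data. Of 89 named genes, 28 share exonic bases with another gene, up to 49.4% (Ccr6).

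The libraries, the gene lists and the rule for named genes were chosen with earlier results of these data known. The rule took the 2 edited loci, the 12 leading genes per direction, up to 4 members of each list with the smallest edgeR p, and a few genes always named. Other list members are given only for completeness and were picked after their values were seen. Scripts were tested on simulated counts. The chi-square per gene between thymic replicates was at least 35.8, so no pair was treated as 1 library deposited again. The 30 libraries of other groups were not analysed here, and 2 genes of the lists are not reported here.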

Additional observations from a re-analysis of the deposited data

How the results depend on the processing

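The thymic count of 0 called genes became 1 with RLE size factors, with filterByExpr and without robust estimation, 5 without the count filter, 6 with limma voom, 6 in the 12-library fit and 156 with DESeq2. It stayed at 0 (0 to 0) when each of the 6 libraries was left out and when libraries were thinned to the smallest total, with 1021 genes then at an unadjusted p under 0.05. The gene called by the first 3 settings was Tspan13, and the 12-library fit called Id2, Ly6a and Il7r among the named genes. With thinning, all 89 named genes kept their direction. Among the 89 named genes, signs turned only for Foxp3 (0.008 without TIR1 replicate 2, 0.041 without WT replicate 3, range -0.114 to 0.041 when each library was left out) and Ikzf2 (0.001 without WT replicate 1, range -0.200 to 0.001), neither of them called in any setting. The interaction count of 0 became 71 with DESeq2 and 82 with DESeq2 and a block on library number, stayed at 0 with that block in edgeR, and ranged from 0 to 5 when libraries were left out. The active count of 0 became 2 without the count filter and 21 with DESeq2, and ranged from 0 to 1. The day 28 count of 194 became 463 with DESeq2, 884 without the count filter and 28 in a fit of only the 4 libraries, and ranged from 32 to 108 when 1 library was left out. What causes these shifts was not tested.

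Over all genes, deviations of same-numbered thymic libraries correlated at -0.014, -0.0267 and -0.0134. Such values cannot show that the samples were unpaired, and the Mcm genes were highest in replicate 3 of both genotypes. With the replicate block, 0 genes were called in the thymus, 0 in the interaction, 0 in active cells and 260 at day 28, where the 2 correlations were 0.11 and 0.11. Deviations of thymic and active libraries with the same library number correlated at -0.00971 to 0.0302.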
